A study of Rattus norvegicus with 288 samples.

Results

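The 10 genes Prkcb, Slc9a9, Kcnip4, Magi1, Tmem117, Bbs9, Immp2l, Dpyd, Fgf13 and Foxp2 were followed across the heart, kidney and liver of rats given oxaliplatin. They were chosen by the log2 difference of oxaliplatin from its vehicle in rats whose oral dose was also a vehicle, among the genes lowest there, so the differences in those rats are given as a description without a test. The 10 genes hold 18 of the 20826 probe sets that carry 1 gene symbol on the Affymetrix rat array (14217 genes), and every probe set was kept apart. A probe set is a group of short probes that together read 1 stretch of a transcript, and its value is a log2 expression value, so that 1 unit of difference is a factor of 2.

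The animals were 96 male Sprague-Dawley rats, 8 weeks of age, each sampled at 1, 6 or 24 h after dosing for left kidney, heart apex and liver, with 1 array for each tissue. A 30 min intravenous infusion held oxaliplatin (15 mg per kg), a platinum drug used against colorectal cancer, or dextrose in water (D5W), its vehicle. An oral dose came 30 min later: sunitinib (5 mg per kg), which blocks several receptor tyrosine kinases, or sterile water, its vehicle, or sorafenib (25 mg per kg), which blocks RAF and VEGF receptor kinases, or its vehicle F68 (Pluronic F68 with propylene glycol and PEG400). The 8 treatments at 3 times in 3 tissues made 72 groups of 4 rats, all of them carrying a femoral vein cannula and 1 infusion. The dosing day of water and sunitinib rats was not that of F68 and sorafenib rats, whereas oxaliplatin and D5W rats of each oral dose were always treated alike.

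Tests of the oxaliplatin effect compared only the rats given sunitinib or sorafenib, which took no part in the choice of the genes. At each time 8 oxaliplatin rats stood against 8 D5W rats (7 D5W rats at 24 h in liver and kidney). The spread behind the standard errors and p values was estimated over all 24 groups of a tissue, the vehicle rats included. Each effect is the log2 difference of oxaliplatin from D5W averaged over both inhibitors, ± is its standard error from limma, and p is Benjamini-Hochberg adjusted over all probe sets tested in the tissue. A probe set was tested in a tissue when it lay above 6 on at least 4 arrays of that tissue. In kidney 15 of the 18 passed (all 10 genes), in heart 13 (8 genes) and in liver 12 (7 genes). A probe set can pass that filter through D5W rats alone, and 2 of the liver probe sets owed their place to them: Prkcb 1368240_a_at exceeded the level on 16 D5W arrays and 2 oxaliplatin arrays, and Foxp2 on 4 and 2. The liver count at 6 h is therefore also given over the other 10.

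As background, oxaliplatin forms platinum adducts on DNA, largely crosslinks between neighbouring guanines of 1 strand, and an RNA polymerase that meets such an adduct can stall. The 10 genes belong to no single pathway. Prkcb encodes protein kinase C beta, a calcium and diacylglycerol dependent kinase that is abundant in B cells and myeloid cells. Slc9a9 is an endosomal sodium/proton exchanger, Kcnip4 a calcium-binding subunit of A-type potassium channels, and Fgf13 an intracellular fibroblast growth factor homologous factor that binds voltage-gated sodium channels. Magi1 is a PDZ scaffold of epithelial tight junctions, and Bbs9 a subunit of the BBSome, which moves proteins in and out of the primary cilium. Immp2l is a subunit of the inner mitochondrial membrane peptidase, Dpyd (dihydropyrimidine dehydrogenase) the first and rate-limiting enzyme of pyrimidine breakdown, Foxp2 a forkhead transcription factor, and Tmem117 a multi-pass membrane protein.

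A long span was shared by all 10. Span was not used to choose them, but they were chosen for their fall. Over all probe sets the share lower at 6 h was larger at long spans, as given below. The spans are therefore a description of the genes chosen. In the RefSeq annotation of the assembly GRCr8 the genes spanned from 331.3 kb (Prkcb) to 1150.7 kb (Kcnip4), with a median of 570.8 kb against 22.3 kb over 14167 genes of the array. All 10 exceeded 200 kb, a span passed by 5.43% of the array's genes. Immp2l covered 899.7 kb, Dpyd 865.9 kb, Magi1 605.6 kb, Foxp2 577.9 kb, Slc9a9 563.7 kb, Fgf13 526.2 kb, Tmem117 462.1 kb and Bbs9 425.0 kb.

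RefSeq promoters on GRCr8 (250 bases before to 50 after the start) were found for 6 of the 10 genes. Those of Magi1, Bbs9 and Slc9a9 are printed because these genes fell in all 3 tissues at 6 h. Capitals mark the GC box (GGGCGG, on either strand).
Magi1, chr4:128368177-128368476, minus strand: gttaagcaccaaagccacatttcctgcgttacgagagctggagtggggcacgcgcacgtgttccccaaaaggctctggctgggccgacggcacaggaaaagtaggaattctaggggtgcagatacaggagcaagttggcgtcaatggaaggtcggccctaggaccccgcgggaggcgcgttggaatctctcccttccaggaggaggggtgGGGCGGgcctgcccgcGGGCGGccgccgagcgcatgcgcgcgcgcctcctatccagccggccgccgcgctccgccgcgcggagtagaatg
Bbs9, chr8:29289758-29290057, plus strand: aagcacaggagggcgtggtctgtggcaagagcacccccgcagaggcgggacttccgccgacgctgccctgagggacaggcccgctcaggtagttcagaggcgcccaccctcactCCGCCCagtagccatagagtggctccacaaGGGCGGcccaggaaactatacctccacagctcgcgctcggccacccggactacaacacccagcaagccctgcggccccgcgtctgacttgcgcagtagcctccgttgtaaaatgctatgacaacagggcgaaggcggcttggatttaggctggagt
Slc9a9, chr8:104112285-104112584, plus strand: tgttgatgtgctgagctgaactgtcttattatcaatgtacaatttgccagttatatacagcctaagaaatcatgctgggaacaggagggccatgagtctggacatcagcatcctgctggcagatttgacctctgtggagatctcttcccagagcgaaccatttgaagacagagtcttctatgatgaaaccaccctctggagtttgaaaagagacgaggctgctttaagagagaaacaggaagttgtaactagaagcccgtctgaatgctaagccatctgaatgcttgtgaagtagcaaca
The Magi1 and Bbs9 windows held 2 GC boxes each and were GC-rich (66.7% and 64.0% G and C), whereas the Slc9a9 window held 0 and was 44.7% G and C. Among the 6 windows 4 held a GC box (Immp2l with 5 and Dpyd with 2 were the others), against 33.1% of 33469 promoters of this length. A TATA box (TATAAA, both strands) was found in 0 of the 6 against 14.2% of promoters, and a CCAAT box (CCAAT, both strands) in Fgf13 alone against 37.5%. No window held more than 1 of the 3 motifs, and the 3 printed windows shared none of them.

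A pair of arrays whose markers belonged to another tissue were left out of 288. Both came from rats labelled D5W then sorafenib at 24 h. A liver array had its kidney markers at a median of 13.09 and its liver markers at 5.77, and a kidney array had uromodulin (Umod) at 6.40 against 14.48 to 14.51 in its group. On the kept arrays each tissue's own markers lay at 12.7 or higher (median over the list) and those of the other tissues at 9.33 or lower. Some kept groups stood apart. The beta-actin probe sets of the 3′ and 5′ ends, whose log2 difference grows with RNA degradation or incomplete labelling, differed by 0.684 in the heart group D5W then sorafenib at 6 h and by 0.752 in the heart group D5W then water at 24 h, against at most 0.470 in the other 22 heart groups (medians). The liver group D5W then sorafenib at 24 h was left with 3 rats, and 1 kidney array of oxaliplatin then sunitinib at 1 h had hybridization control BioB at 4.69 against 7.18 on the next kidney array. Most counts of called members and lists that rest on these groups are given with and without them. The heart list of deep falls at 6 h and the list of similar patterns are given with them alone. For the kidney count at 1 h only the range over single rats left out is given.

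In D5W rats given an oral vehicle (24 rats a tissue, all times) the genes differed in where they were expressed. Kcnip4 1383220_at had a median of 8.40 in kidney, and of 4.74 in liver and 4.70 in heart, both below the filter. Tmem117 stood at 8.61 in kidney, 6.39 in heart and 5.20 in liver, and Foxp2 at 8.06, 7.41 and 5.36 in the same order. Fgf13 was highest in heart (10.17), then kidney (9.44), and lay at 4.98 in liver. Dpyd was highest in liver (11.12), then kidney (8.40), and lay at 4.90 in heart. In each of these 5 genes the ranges of kidney and liver rats did not overlap. The remaining genes were measured in all 3 tissues at levels closer together: Magi1 1381871_at at 9.24 in kidney, 9.14 in liver and 8.88 in heart, Immp2l at 8.58, 8.48 and 8.65, Bbs9 at 7.83 in kidney and 6.08 in heart with liver between, Prkcb 1370585_a_at at 7.68 in kidney, 8.33 in liver and 7.58 in heart, and Slc9a9 1378131_at at 6.68, 7.26 and 6.19. For Immp2l and Magi1 1381871_at the ranges of the 3 tissues overlapped, and no order was read from them. These are levels of 1 probe set across tissues and are not levels of one gene against another.

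The kidney at 6 h held the deepest falls of Kcnip4, Magi1, Fgf13, Bbs9 and Tmem117, whereas Slc9a9 and Prkcb were lowest in liver at 6 h, Dpyd and Immp2l in kidney at 24 h and Foxp2 in kidney at 1 h. In rats given sunitinib or sorafenib 11 of the 15 member probe sets tested were lower after oxaliplatin and 0 were higher, against 7.74% lower over all 17190 probe sets tested. The median difference was -0.88 over the member probe sets and 0.01 over all. In the vehicle rats that served to choose the genes, all 15 differences were below 0, from -1.29 (Fgf13) to -0.05 (Foxp2).

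**Figure D1:**
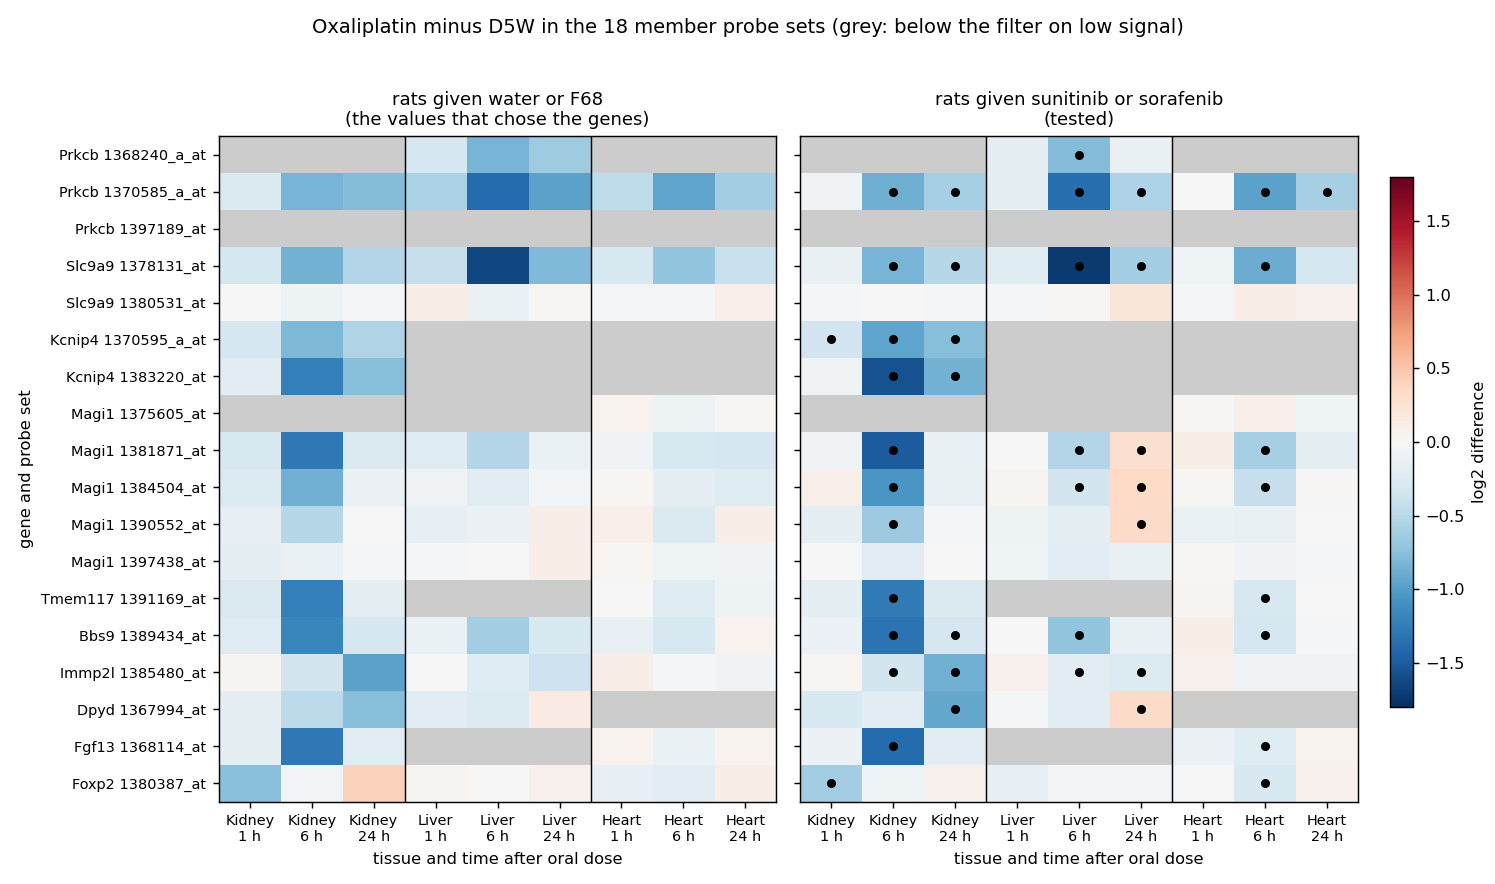
Log2 difference of oxaliplatin from D5W for the 18 probe sets (rows) in each tissue and time (columns), in rats given an oral vehicle on 1 panel and in rats given sunitinib or sorafenib on the other. Black dots mark an adjusted p under 0.05 in inhibitor rats and grey cells a probe set below the filter. The kidney column at 6 h holds 11 dots.

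Of the genes with roles at ion channels and membranes, Kcnip4 fell most. Its probe set 1383220_at ran from 7.91 through a median of 8.14 to 8.40 in the 8 D5W rats and from 6.17 through 6.67 to 6.97 in the 8 oxaliplatin rats. The groups did not overlap. The difference was -1.56 ± 0.08 (adjusted p = 4.02e-26), a 2.95-fold fall, and -1.24 in vehicle rats. Its other probe set, 1370595_a_at, fell by 0.94 ± 0.11 (adjusted p = 2.17e-10), from a median of 6.72 to 5.79, again without overlap.

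Fgf13 lay between 8.95 and 9.57 in D5W rats (median 9.39) and between 7.68 and 8.26 in oxaliplatin rats (median 7.89). Every oxaliplatin rat was below every D5W rat. The difference was -1.38 ± 0.09 (adjusted p = 7.03e-21), a 2.61-fold fall. Slc9a9 1378131_at was at 6.08, 6.38 and 6.63 (lowest, median and highest D5W rat) and at 5.25, 5.52 and 5.75 after oxaliplatin. This fall of 0.84 ± 0.08 (1.79-fold, adjusted p = 7.42e-14) also left no overlap, although all oxaliplatin rats then lay below the filter level. The second Slc9a9 probe set, 1380531_at, did not follow: both groups had a median of 6.17, with a difference of -0.00 ± 0.07 (adjusted p = 0.988).

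The scaffold gene Magi1 has 5 probe sets on the array, and their values are given apart. The brightest, 1381871_at, ran from 9.19 through 9.31 to 9.61 in D5W rats and from 7.26 through 7.90 to 8.46 in oxaliplatin rats. The groups were separate, and the fall of 1.50 ± 0.10 (2.83-fold, adjusted p = 7.76e-21) was among the deepest of all genes in kidney. Magi1 1384504_at fell by 1.05 ± 0.07 (2.07-fold, adjusted p = 4.85e-20) and 1390552_at by 0.66 ± 0.07 (1.58-fold, adjusted p = 7.09e-13), both without overlap of the rats. Magi1 1397438_at, with D5W and oxaliplatin medians of 6.51 and 6.30, differed by -0.20 ± 0.08 and missed the threshold (adjusted p = 0.0554). In the sunitinib rats alone it passed (-0.33 ± 0.11, adjusted p = 0.0272). The fifth, 1375605_at, was below the filter in kidney. Where along the transcripts these probe sets lie was not analysed here, and the differences between probe sets of a gene were not tested.

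**Figure D2:**
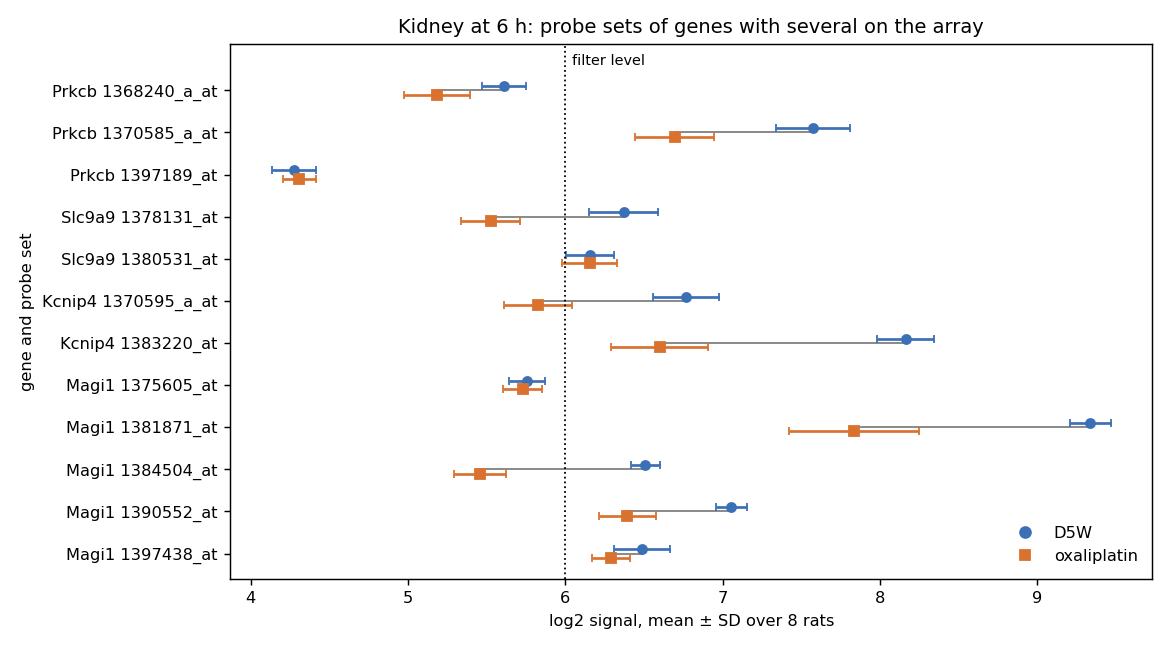
Mean log2 level ± SD in kidney at 6 h of D5W and oxaliplatin rats given sunitinib or sorafenib (8 rats each) for the probe sets of Prkcb, Slc9a9, Kcnip4 and Magi1, with the filter level of 6 as a dotted line. Slc9a9 1378131_at separates the groups while 1380531_at has both at a median of 6.17, and 3 of the Magi1 probe sets separate them without overlap.

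Bbs9, the BBSome subunit, varied little among D5W rats, from 7.69 to 7.86 with a median of 7.78. Oxaliplatin rats ran from 6.16 through 6.40 to 7.09, so that all 8 lay below the lowest D5W rat. The fall of 1.33 ± 0.06 (2.52-fold) had the smallest adjusted p of the 15 (3.04e-28). Tmem117 went from 8.19, 8.56 and 8.64 in D5W rats to 6.84, 7.25 and 7.55 (lowest, median and highest). This was a 2.41-fold fall without overlap (-1.27 ± 0.09, adjusted p = 7.6e-20).

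The kinase gene Prkcb was read in kidney by 1370585_a_at, with D5W rats from 7.20 through 7.55 to 7.92 and oxaliplatin rats from 6.41 through 6.65 to 7.08. The groups did not overlap, and the difference was -0.88 ± 0.12 (1.84-fold, adjusted p = 1.1e-08). The other Prkcb probe sets, 1368240_a_at and 1397189_at, were below the filter in kidney. The mitochondrial peptidase gene Immp2l fell less, by 0.33 ± 0.07 (1.25-fold, adjusted p = 0.000346), with 6 of 8 oxaliplatin rats below all D5W rats. Dpyd (-0.20 ± 0.12, adjusted p = 0.28) and Foxp2 (-0.08 ± 0.15, adjusted p = 0.774) were not called in kidney at 6 h, and their groups overlapped.

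Each inhibitor was also read alone in kidney at 6 h. In sunitinib rats 12 of 15 member probe sets were lower (5.56% of all probe sets) and in sorafenib rats 11 (2.55% of all). Point estimates were larger in sunitinib rats for Kcnip4 1383220_at (-1.94 against -1.18), Magi1 1381871_at (-1.83 against -1.17) and Fgf13 (-1.66 against -1.11). Tested over the 3 times together (moderated F test), the oxaliplatin effect differed between sunitinib and sorafenib rats for 0 of the 15 member probe sets, with 0.00582% called over all. For Kcnip4 1383220_at at 6 h the difference of -0.76 ± 0.17 had an adjusted p of 0.119.

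At 1 h in kidney 2 of 15 member probe sets were lower, against 3.6% of all. The forkhead gene Foxp2 ran from 7.57 through 8.37 to 8.56 in D5W rats and from 7.16 through 7.65 to 7.95 in oxaliplatin rats. The ranges overlapped, and 3 oxaliplatin rats were below all D5W rats. Its fall of 0.62 ± 0.15 (1.54-fold, adjusted p = 0.00157) was 0.66 without the array with the low BioB signal (adjusted p = 0.00111). Foxp2 was lower at 1 h and not called at 6 or 24 h (0.08 ± 0.15 at 24 h, adjusted p = 0.924), where vehicle rats showed a difference of 0.42. Kcnip4 1370595_a_at was lower by 0.34 ± 0.11 (adjusted p = 0.0281), a call lost when any of 6 of the 16 rats was left out. The other 13 had differences between -0.28 (Dpyd) and 0.09 (Magi1 1384504_at).

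By 24 h in kidney 7 of 15 were lower, against 0.721% of all. Dpyd and Immp2l, little changed or not called at 6 h, stood first. Dpyd ran from 8.36 through 8.51 to 9.24 in 7 D5W rats and from 7.24 through 7.70 to 8.08 in 8 oxaliplatin rats. Immp2l ran from 8.25 through 8.49 to 8.84 in D5W rats and from 7.40 through 7.65 to 7.82 in oxaliplatin rats. Neither gene's groups overlapped. Dpyd fell by 0.93 ± 0.13 (1.90-fold, adjusted p = 3.01e-07) and Immp2l by 0.87 ± 0.08 (1.83-fold, adjusted p = 1.5e-14). Kcnip4 1383220_at was still lower by 0.85 ± 0.09 (adjusted p = 1.6e-11) and 1370595_a_at by 0.77 ± 0.12 (adjusted p = 2.27e-06). Prkcb 1370585_a_at (-0.59 ± 0.12, adjusted p = 0.00135), Slc9a9 1378131_at (-0.51 ± 0.08, adjusted p = 1.83e-05) and Bbs9 (-0.30 ± 0.07, adjusted p = 0.00413) made up the 7, all without overlap of the rats. Tmem117 (-0.27), Fgf13 (-0.21) and Magi1 1381871_at (-0.14) were not called (adjusted p from 0.128 to 0.689). A kept kidney array of D5W then sorafenib at 24 h had albumin at 12.97 against a kidney median of 7.32. The next kidney array had albumin at 12.74. The part of the first array in these values was not tested beyond leaving it out, which lost 0 of the 7 calls.

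Macrophage markers, read because Prkcb is expressed in myeloid cells, were read in kidney. In bulk tissue fewer cells of a type and less RNA per cell cannot be told apart. At 6 h Adgre1, the F4/80 antigen, was lower (-0.91 ± 0.16, adjusted p = 6.84e-06) and the complement gene C1qb higher (0.45 ± 0.12, adjusted p = 0.00337), out of 9 tested with a median of -0.00. Of all probe sets 7.74% were lower and 13.0% higher there. At 24 h 2 of 9 were lower (0.721% of all), Csf1r, the receptor of macrophage colony-stimulating factor (-0.55 ± 0.10, adjusted p = 0.000386), and the lysozyme gene Lyz2 (-0.52 ± 0.10, adjusted p = 0.000166), with a median of -0.35 against 0.01 over all, and 0 were higher. The mean level of the list ranged from 7.51 to 8.12 in D5W kidneys and from 7.43 to 7.91 in oxaliplatin kidneys at 6 h, and from 7.54 to 7.85 and from 7.25 to 7.64 at 24 h. These ranges over both inhibitors overlapped at both times. Within each inhibitor the groups were separate at 24 h. In sunitinib rats the list ran from 7.66 to 7.85 after D5W and from 7.45 to 7.64 after oxaliplatin. In sorafenib rats it lay at 7.543 or higher and at 7.538 or lower. At 6 h the sunitinib rats overlapped. The part of these cells in the Prkcb and Slc9a9 falls in kidney was not tested.

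The change of the effect with time was itself tested. From 1 to 6 h the kidney effect became more negative in 11 of 15 member probe sets (7.41% of all changed in either direction), led by Kcnip4 1383220_at (-1.51 ± 0.12, adjusted p = 7.34e-17) and Magi1 1381871_at (-1.44 ± 0.14, adjusted p = 1.25e-12). From 6 to 24 h it changed in 9 of 15 (7.2% of all). In 7 it rose back toward 0, by 1.36 ± 0.15 in Magi1 1381871_at (adjusted p = 7.31e-11), 1.17 ± 0.13 in Fgf13, 1.03 ± 0.09 in Bbs9 and 1.00 ± 0.13 in Tmem117. In Immp2l and Dpyd it became more negative, by -0.54 ± 0.10 (adjusted p = 0.000162) and -0.73 ± 0.18 (adjusted p = 0.0043). Prkcb 1370585_a_at, Slc9a9 1378131_at and Kcnip4 1370595_a_at fell between 1 and 6 h and their change from 6 to 24 h was not called.

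**Figure D3:**
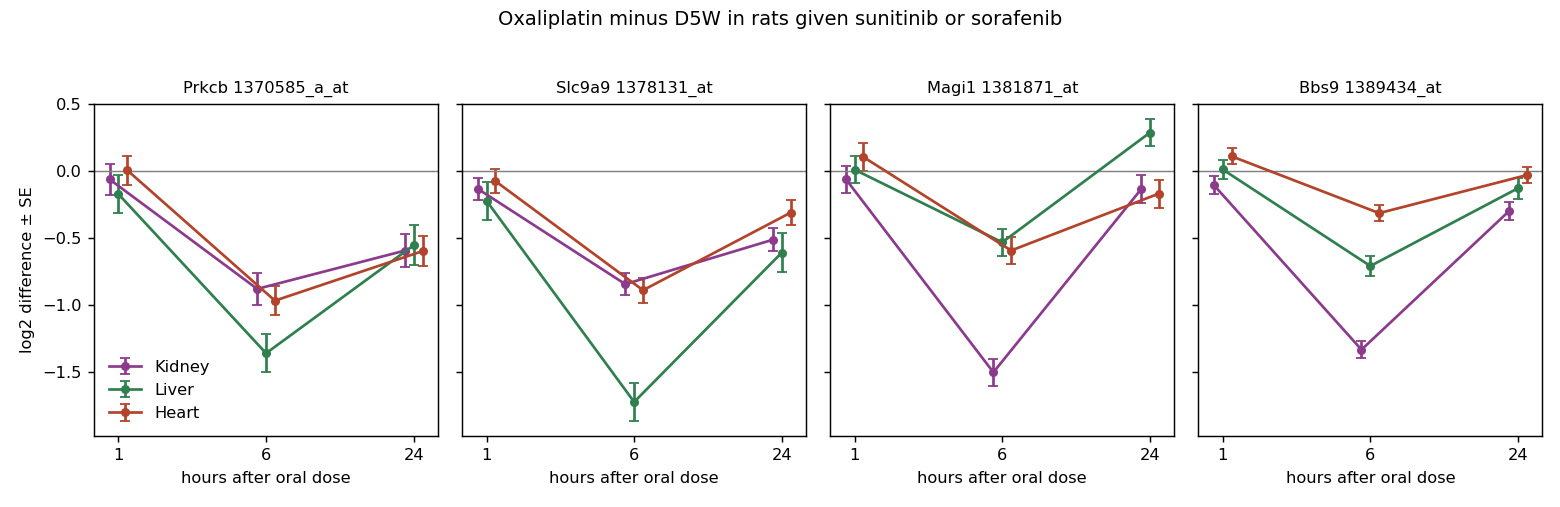
Log2 difference of oxaliplatin from D5W (± SE) against time in rats given sunitinib or sorafenib, for Prkcb 1370585_a_at, Slc9a9 1378131_at, Magi1 1381871_at and Bbs9 in kidney, liver and heart. All 4 are lowest at 6 h in every tissue, with the deepest point of Slc9a9 in liver (-1.72) and those of Magi1 (-1.50) and Bbs9 (-1.33) in kidney.

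In liver at 6 h 7 of 12 member probe sets were lower and 0 higher, against 1.95% lower over all 15961 tested (median difference -0.27 over the members and 0.01 over all). Without the 2 that passed the filter through D5W rats, 6 of 10 were lower. Slc9a9 1378131_at ran from 6.76 through 6.90 to 8.02 in D5W rats and from 5.21 through 5.36 to 5.54 in oxaliplatin rats. The groups were apart by more than 1 log2 unit. The fall of 1.72 ± 0.14 was 3.30-fold (adjusted p = 1e-15), with -1.64 in vehicle rats. Slc9a9 1380531_at again showed 0.01 ± 0.08 (adjusted p = 0.942).

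Prkcb 1370585_a_at ran from 7.63 through 8.37 to 8.85 in D5W livers and from 6.64 through 6.99 to 7.28 in oxaliplatin livers. The groups did not overlap, with a fall of 1.36 ± 0.14 (2.56-fold, adjusted p = 3.33e-11). The dimmer Prkcb 1368240_a_at had a median of 5.89 in D5W livers and 5.12 in oxaliplatin livers, a difference of -0.78 ± 0.12 given as a description, since this probe set passed the filter through the D5W rats. Bbs9 fell by 0.71 ± 0.07 (1.63-fold, adjusted p = 3.22e-11), from 6.96 to 7.25 in D5W rats to between 5.94 and 6.68, without overlap. Magi1 1381871_at (-0.53 ± 0.10, adjusted p = 0.000174) and 1384504_at (-0.34 ± 0.08, adjusted p = 0.00427) were lower with overlapping rats, and Immp2l by 0.19 ± 0.05 (adjusted p = 0.0219), a call lost when any of 4 rats was left out. Dpyd, at its highest level here, differed by -0.20 ± 0.08 (adjusted p = 0.131).

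Markers of myeloid cells and lymphocytes, in which Prkcb is abundant, were also read in liver. Of 13 macrophage markers 11 were on the array, and their mean level ranged from 10.23 to 10.80 in the 8 D5W livers at 6 h and from 10.03 to 10.43 in the 8 oxaliplatin livers. Of the 11, 3 were lower at 6 h (1.95% of all) and 0 higher: Adgre1 (-1.05 ± 0.23, adjusted p = 0.00155), the mannose receptor Mrc1 (-0.61 ± 0.09, adjusted p = 8.61e-07) and the scavenger receptor Stab1 (-0.38 ± 0.08, adjusted p = 0.000739). At 1 h Mrc1 (-0.52) and Stab1 (-0.49) were already lower while Prkcb 1370585_a_at was not called (-0.17 ± 0.14, adjusted p = 0.73). Of the B cell markers 0 of 3 on the array (of 6 listed) and of the T cell markers 0 of 6 were called in liver at 6 h, with mean levels of 6.37 to 6.73 against 6.16 to 6.49 and of 6.49 to 6.77 against 6.59 to 6.72. At 24 h Cd163 of the macrophage list (-0.61 ± 0.15, adjusted p = 0.00258) and Ms4a1 of the B cell list (-0.35 ± 0.09, adjusted p = 0.00544) were lower. So were Cd3d (-0.29) and Cd3g (-0.27) of the T cell list, against 5.61% of all, and 0 markers were higher. In the sunitinib rats alone 0 B or T cell markers were called. The macrophage list then ran from 10.44 to 10.58 after D5W and from 10.10 to 10.18 after oxaliplatin. In the sorafenib rats alone it overlapped, from 9.64 to 9.94 (3 rats) and from 9.58 to 9.96. There 0 of 11 macrophage markers were lower, with a median difference of 0.06 against 0.11 over all. The part of these cells in the Prkcb and Slc9a9 falls was not tested.

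At 1 h 0 of 12 member probe sets were called lower in liver, with 1.13% of all lower, and 0 were called higher. From 1 to 6 h the effect became more negative in 4 of 12 (0.695% of all changed): Slc9a9 1378131_at (-1.50 ± 0.20, adjusted p = 3.92e-07), Prkcb 1370585_a_at (-1.19 ± 0.20, adjusted p = 0.000106), Bbs9 (-0.72 ± 0.10, adjusted p = 4.5e-06) and Magi1 1381871_at (-0.54 ± 0.14, adjusted p = 0.0358). From 6 to 24 h it rose in 8 of 12 (6.0% of all changed), and in 4 of 12 with the sunitinib rats alone.

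At 24 h in liver 3 of 12 were lower (5.61% of all) and 4 higher (16.3% of all), and the values depended on the 3 rats given D5W then sorafenib. Over both inhibitors Slc9a9 1378131_at was lower by 0.61 ± 0.15 (adjusted p = 0.00172), Prkcb 1370585_a_at by 0.55 ± 0.15 (adjusted p = 0.00515) and Immp2l by 0.25 ± 0.06 (adjusted p = 0.00114), with overlapping rats in each. With the sunitinib rats alone the same 3 were lower, against 0.482% of all, by 0.96 for Slc9a9 (adjusted p = 0.00395), 0.92 for Prkcb (adjusted p = 0.00791) and 0.35 for Immp2l (adjusted p = 0.00751). With the sorafenib rats alone 0 members were lower. Magi1 1384504_at (0.36), 1390552_at (0.35), 1381871_at (0.29) and Dpyd (0.34) were higher over both inhibitors (adjusted p from 0.000555 to 0.0357), and none of these 4 was called in the sunitinib rats alone (0.10 for Dpyd, and 0.10 to 0.29 for Magi1). The oxaliplatin effect over 3 times differed between sunitinib and sorafenib rats for 0 of 12 in liver, with 8.6% of all called.

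In heart at 6 h 8 of 13 member probe sets were lower and 0 higher, against 11.1% of all 15570 lower, with medians of -0.27 over the members and 0.02 over all. Prkcb 1370585_a_at ran from 6.98 through 7.42 to 7.81 in D5W hearts and from 6.14 through 6.43 to 6.62 in oxaliplatin hearts. Slc9a9 1378131_at ran from 5.91 through 6.16 to 6.51 in D5W hearts and from 5.09 through 5.28 to 5.56 in oxaliplatin hearts. Both pairs of groups were separate. Prkcb fell by 0.97 ± 0.11 (1.95-fold, adjusted p = 2.06e-11) and Slc9a9 by 0.89 ± 0.09 (1.85-fold, adjusted p = 5.52e-13). The other 6 were smaller and their rats overlapped: Magi1 1381871_at (-0.59 ± 0.10, adjusted p = 5.33e-06) and 1384504_at (-0.42 ± 0.08, adjusted p = 1.36e-05), Bbs9 (-0.31 ± 0.06, adjusted p = 2.15e-05), Tmem117 (-0.29 ± 0.07, adjusted p = 0.000843), Foxp2 (-0.27 ± 0.09, adjusted p = 0.0185) and Fgf13 (-0.22 ± 0.05, adjusted p = 0.00111).

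The heart group D5W then sorafenib at 6 h is the one with the high beta-actin 3′ to 5′ difference. In the sunitinib rats alone 15 probe sets were lower (0.0963% of all), and 3 of them were members: Prkcb 1370585_a_at (-1.20, adjusted p = 3.19e-07), Slc9a9 1378131_at (-1.11 ± 0.13, adjusted p = 1.62e-08) and Bbs9 (-0.54 ± 0.08, adjusted p = 5.2e-05). In sorafenib rats alone Bbs9 differed by -0.09 ± 0.08 (adjusted p = 0.427). The effect over the 3 times differed between sunitinib and sorafenib rats for Bbs9 (adjusted p = 0.018) and Slc9a9 1378131_at (adjusted p = 0.048) among the 13, with 18.0% of all probe sets called, and for 0 of the 13 without the 6 h rats. A heart of D5W then sunitinib at 6 h had the T cell list at 8.38 against a median of 6.57 over hearts, and Prkcb at 7.81. Without that rat Prkcb fell by 0.93 in heart at 6 h. Of the macrophage markers tested 3 of 10 were lower in heart at 6 h (11.1% of all), among them Adgre1 (-0.96 ± 0.13, adjusted p = 8.49e-09). The 1 higher (12.8% of all) was C1qb (0.32 ± 0.12, adjusted p = 0.0428). The list median was -0.08 against 0.02 over all. In the sunitinib rats alone Adgre1 was the 1 lower (-0.998 ± 0.186, adjusted p = 0.0031), and 0 were higher. The mean level of the list ranged from 7.67 to 8.28 in D5W hearts and from 7.52 to 8.08 in oxaliplatin hearts. In the sunitinib rats alone it ran from 8.16 to 8.28 and from 8.04 to 8.08, without overlap. The part of macrophages in the Prkcb fall was not tested.

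At 1 h 0 of 13 were lower in heart, with 10.4% of all lower. At 24 h Prkcb 1370585_a_at alone was lower (1 of 13, against 0.257% of all), by 0.60 ± 0.11 (1.51-fold, adjusted p = 0.00124), with overlapping rats and with a difference of -0.34 in the sorafenib rats alone, where the call was lost. In sunitinib rats alone Slc9a9 1378131_at was called too (-0.53, adjusted p = 0.0271). Of the macrophage markers 3 of 10 were lower in heart at 24 h and 0 higher: Adgre1 (-0.63 ± 0.13, adjusted p = 0.00502), the receptor Csf1r (-0.46 ± 0.09, adjusted p = 0.00252) and Stab1 (-0.42 ± 0.09, adjusted p = 0.00388), with a list median of -0.40 against 0.00 over all. The mean level of the list ranged from 7.14 to 8.27 in D5W hearts and from 6.87 to 8.05 in oxaliplatin hearts. In sorafenib rats alone it ran from 7.14 to 7.67 and from 6.87 to 7.09, without overlap, while the sunitinib rats overlapped. The part of macrophages in the Prkcb change was not tested. The heart effect became more negative from 1 to 6 h in 6 of 13 (14.7% of all changed), with a change of -0.97 ± 0.16 for Prkcb (adjusted p = 1.2e-06) and -0.81 ± 0.13 for Slc9a9 1378131_at (adjusted p = 1.2e-06), and rose from 6 to 24 h in 6 of 13 (13.0% of all changed). With sunitinib rats alone these counts were 3 and 0.

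The tissues were compared at 6 h in 1 fit over all arrays kept. The kidney effect was more negative than the liver effect for Magi1 1381871_at (-0.97 ± 0.14, adjusted p = 1.54e-07), Magi1 1384504_at (-0.71), Magi1 1390552_at (-0.49) and Bbs9 (-0.62 ± 0.09, adjusted p = 2.07e-07), and less negative for Slc9a9 1378131_at (0.88 ± 0.15, adjusted p = 1.2e-05). These 5 were the called ones of 11 tested in both tissues (2.74% of all). Against heart, 7 of 12 were more negative in kidney (14.7% of all changed), led by Fgf13 (-1.17 ± 0.12, adjusted p = 1.54e-17), Bbs9 (-1.02, adjusted p = 1.33e-19), Tmem117 (-0.98, adjusted p = 6.36e-16) and Magi1 1381871_at (-0.91), with Immp2l last (-0.26, adjusted p = 0.0405). Liver was more negative than heart for Slc9a9 1378131_at (-0.83 ± 0.15, adjusted p = 7.42e-06) and Bbs9 (-0.39 ± 0.09, adjusted p = 0.00092) among 10 (13.9% of all changed). With sunitinib rats alone 6 were called between kidney and heart and 1 between liver and heart. Prkcb 1370585_a_at was called in none of the 3 comparisons, with 0.09 ± 0.18 for kidney minus heart (adjusted p = 0.817). The labels do not tie the 3 tissues of a rat together, so the fit treats them as separate rats.

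The oral inhibitors were also compared with their own vehicles, averaged over both infusions and tested over the 3 times. Sunitinib changed 0 of 15 member probe sets in kidney (0.465% of all) and 0 of 12 in liver (0.0376% of all). In heart it changed Tmem117 alone (adjusted p = 0.0249, 16.6% of all called), by 0.20 at 24 h, and 0 without the 24 h rats, whose D5W then water group had the high beta-actin difference. Sorafenib changed 1 of 15 in kidney (0.634% of all), 9 of 12 in liver (64.1% of all) and 7 of 13 in heart (52.9% of all). The liver count was 0 without the 24 h rats and the heart count 3 without the 6 h rats, so the shares in both tissues lay near the background or rested on the groups that stood apart.

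Prkcb was the member changed by sorafenib in every tissue. At 24 h Prkcb 1370585_a_at was lower in sorafenib than in F68 rats by 0.69 in kidney, 1.01 in liver and 0.95 in heart (adjusted p over the 3 times 0.00162, 2.95e-07 and 7.98e-10). In hearts of D5W rats it ran from 7.60 through 7.75 to 8.34 after F68 (4 rats) and from 6.65 through 6.76 to 6.96 after sorafenib (4 rats). In oxaliplatin hearts it ran from 7.19 through 7.22 to 7.39 after F68 and from 6.28 through 6.49 to 6.51 after sorafenib. The sorafenib hearts lay below the F68 hearts under both infusions, by 1.08 after D5W and 0.81 after oxaliplatin. The F68 rats were among those that served to choose the genes. That choice favours a larger difference after D5W and a smaller one after oxaliplatin. Values for 1 infusion alone are therefore given as a description without a test. In kidney the F68 and sorafenib rats were separate as well, with mean differences of -0.84 after D5W (3 sorafenib rats) and -0.53 after oxaliplatin. In liver, sorafenib lay lower by 1.52 after D5W, where the group of 3 stands apart, and by 0.50 after oxaliplatin, where every sorafenib rat (6.71 to 7.29) was below every F68 rat (7.33 to 7.95).

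The macrophage list moved with sorafenib at 24 h too. Its mean level in D5W hearts ranged from 7.82 to 8.36 after F68 and from 7.14 to 7.67 after sorafenib, and in oxaliplatin hearts from 7.82 to 8.10 and from 6.87 to 7.09. In oxaliplatin livers it ranged from 9.84 to 10.21 and from 9.58 to 9.96. The B cell list differed by 0.16 in D5W hearts and by -0.05 in oxaliplatin hearts. Slc9a9 1378131_at was lower in sorafenib hearts by 0.46 on average. It was lower by 0.65 after D5W and 0.27 after oxaliplatin, where the choice of the genes bears on the values of each infusion as for Prkcb. In sorafenib livers it was lower by 0.60 on average, with a difference of -0.97 after D5W, where the group of 3 stands apart, and of -0.23 after oxaliplatin, where sorafenib rats (5.69 to 6.65) and F68 rats (6.23 to 6.72) overlapped. The part of macrophages in these differences was not tested.

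A list of 20 probe sets called lower in kidney at 6 h ran from rank 2 to rank 32 by depth among all tested. Probe sets at the ranks it skips were not counted, here or in the other tissues. The list held 6 probe sets of 5 member genes, and all 20 came from genes over 200 kb. Beside the members stood Camkmt, a lysine methyltransferase of calmodulin (-1.22), the orphan receptor Esrrg (-1.16), the oxidoreductase gene Wwox (-1.13) and phospholipase C beta 1 (Plcb1, -1.13). The liver list of 20 (ranks 2 to 41) held 4 probe sets of 3 members, and 18 of the 20 were over 200 kb. Among these 4 was Prkcb 1368240_a_at, which passed the filter through D5W rats, so its place is a description only. The receptor phosphatase Ptprm (-1.32) and the hyaluronan receptor Stab2 (-1.18) stood close to Prkcb. In the heart list of 20 (ranks 2 to 21) 0 were members and 1 was over 200 kb, with the transcriptional coactivator Ppargc1a (-1.95) first. That comparison rests on the D5W then sorafenib group at 6 h.

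A list of other very long genes, chosen with earlier results of these data known, was read beside the members. In kidney at 6 h 23 of its 42 probe sets were lower and 0 higher, with a median difference of -0.32 against 0.01 over all and 7.74% of all lower. They included Wwox, the guanine nucleotide exchange factor Dock1 (-0.98 ± 0.05, adjusted p = 1.38e-25), the polarity scaffold Pard3 (-0.73 ± 0.10, adjusted p = 6.41e-09) and the RNA demethylase Fto (-0.70 ± 0.04, adjusted p = 5.9e-24). In liver 11 of 36 were lower (1.95% of all) and in heart 18 of 38 (11.1% of all), or 2 of 38 in heart with the sunitinib rats alone (0.0963% of all). By 24 h in kidney 4 of the 42 were lower (0.721% of all), of which Wwox had gone to -1.39 ± 0.12.

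Over all tested probe sets with a known span, members left out, the share lower in kidney at 6 h was 1.46% under 10 kb, 3.4% from 10 to 50 kb, 12.7% from 50 to 200 kb, 49.5% from 200 to 400 kb and 42.3% over 400 kb. The share higher ran the other way, from 18.1% under 10 kb to 0.313% from 200 to 400 kb and 1.84% over 400 kb. In liver at 6 h the share lower went from 0.601% under 10 kb to 14.3% and 19.3% in the 2 longest classes. In heart at 6 h it went from 2.79% to 26.6% and 38.0%, but in the sunitinib rats alone, without the group with the high beta-actin difference, from 0 of 3545 probe sets under 10 kb to 0.346% and 2.48% (2 of 578 and 6 of 242). At 24 h in kidney 3.61% and 6.99% of the 2 longest classes were lower.

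**Figure D4:**
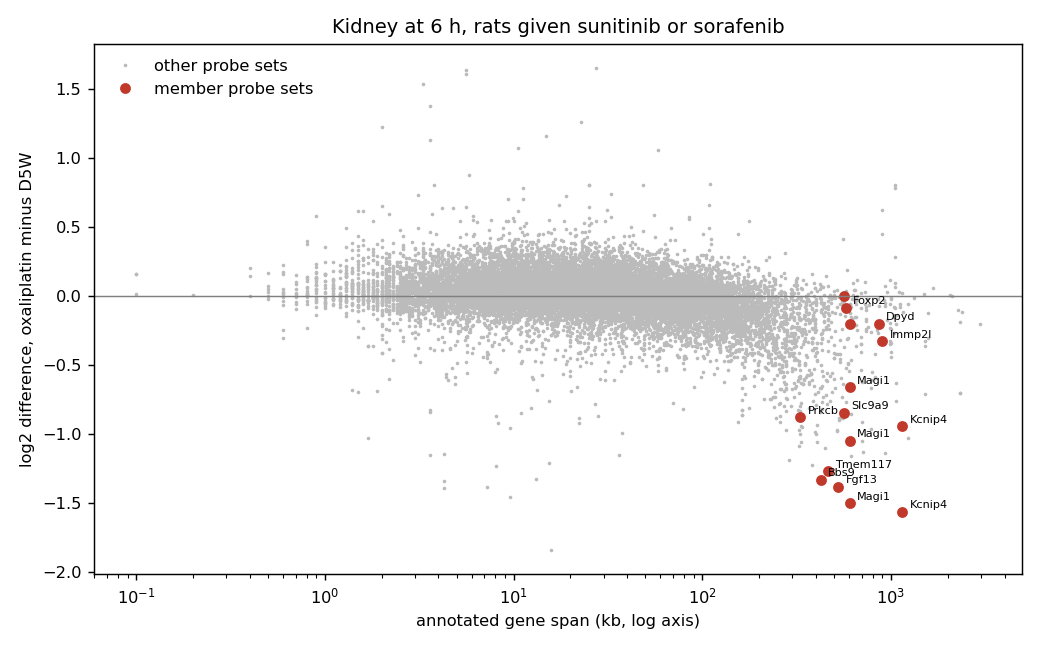
Log2 difference of oxaliplatin from D5W in kidney at 6 h (rats given sunitinib or sorafenib) against the genomic span of the gene in kb on a log axis, 1 point for each tested probe set, members marked. The points widen downward at long spans, where 49.5% of probe sets from 200 to 400 kb and 42.3% of those over 400 kb were lower.

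Relatives of the members, genes of the same families, were read beside them. Of 42 probe sets tested in kidney at 6 h 11 were lower and 4 higher, with a median of -0.04, against 7.74% lower and 13.0% higher over all. The protein kinase C genes split: Prkce fell by 0.56 ± 0.05 (adjusted p = 1.27e-16) and Prkca by 0.41 ± 0.08 (adjusted p = 3.13e-05), while Prkci rose by 0.34 ± 0.07 (adjusted p = 8.64e-05, the larger of its 2 probe sets). All 4 called Foxp1 probe sets, of the forkhead gene nearest to Foxp2, were lower (-0.54 to -0.30). Foxp1 is also on the list of other very long genes, so these probe sets were counted in both lists. Of the BBSome family Ttc8, another BBSome subunit, was lower (-0.22 ± 0.06, adjusted p = 0.00513) and the chaperonin-like Bbs12 higher (0.24 ± 0.05, adjusted p = 2.35e-05). In liver 2 of 33 relatives were lower, Prkce (-0.32) and Prkca (-0.23), against 1.95% of all. In heart 7 of 34 were lower (11.1% of all) and 3 higher (12.8% of all), and in the sunitinib rats alone 0 of 34 were lower and 0 higher.

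The pattern of the 10 member probe sets tested in all 3 tissues, taken as their median effect at 3 times in each tissue, was matched most closely by Msi2 (Euclidean distance 0.235 over the 9 effects), an RNA-binding protein gene, among 14252 candidate probe sets. Dennd1a, Tnik, Bcas3 (with 2 probe sets), Agap1, Pdss2, Fto, Atg7 and Cdkal1 followed at distances up to 0.292. The 10 member probe sets belong to Prkcb, Slc9a9, Magi1, Bbs9, Immp2l and Foxp2, with Magi1 most often. The choice by distance sets the effects of the matches near the members' median, which was -0.75 in kidney at 6 h. Their effects there ran from -0.58 (Agap1) to -0.88 (Cdkal1). The spans of these genes ran from 207.5 kb (Atg7) to 552.6 kb (Cdkal1). The effects of the matches at 6 h in heart lay between -0.28 and -0.08, with the D5W then sorafenib group kept.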

How the data were processed

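Gene expression was measured with 1 Affymetrix whole-genome rat array per rat and tissue (288 arrays). For the deposited log2 values the authors used robust multi-array averaging (RMA), a background correction, quantile normalization and summary of probes. Its version, and whether all tissues entered 1 normalization, are not given in the sources used here. The median of an array lay between 7.32 and 7.81 in kidney, between 6.66 and 6.78 in liver and between 6.63 and 6.69 in heart, so levels across tissues are approximate. Samples had passed a minimum RNA integrity number, for which the labels and the study's methods give different values.

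Of 31099 probe sets, 57 were controls, 20826 carried 1 gene symbol, 436 several and 9780 none, and only those with 1 symbol were tested. Probe sets above 6 on at least 4 arrays of a tissue were tested (kidney 17190, liver 15961, heart 15570). A model with 24 group means per tissue was fitted in limma 3.58.1 (R 4.3.3), with moderated statistics and Benjamini-Hochberg adjustment over all tested probe sets at an adjusted p of 0.05. Replicates are separate rats. All probe sets of the 10 genes were named, with 2 to 4 called genes of each list by size. Also named were a selection from 20 of the deepest called falls in each tissue at 6 h and the 10 probe sets of most similar pattern. The members, lists and tests were chosen with earlier results of these data known, so no list is independent evidence. The fit was tested on simulated data. Alternatives were quantile normalization within a tissue, no filter, the compared groups alone, each inhibitor alone, keeping both misplaced arrays, and leaving out each rat. The number of arrays limits the precision.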

Additional observations from a re-analysis of the deposited data

Results flagged for a closer look

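Among 158 groups of 4 rats (called member probe sets in the tissues and times where they were called), 15 held a rat whose gap to the nearest of the others exceeded Dixon's 95% critical value for 4. Chance gives about 1 in 20 groups. In kidney at 6 h Fgf13 stood at 7.68 in 1 rat given oxaliplatin then sunitinib (others 7.87 to 7.90), Immp2l at 8.06 in 1 given oxaliplatin then sorafenib (others 8.25 to 8.27), and among rats given D5W then sunitinib Kcnip4 1370595_a_at at 6.77 (others 6.99 or higher), Magi1 1390552_at at 7.01 (others 7.15 to 7.17) and Tmem117 at 8.48 (others 8.56 to 8.57). In kidney at 24 h Kcnip4 1370595_a_at stood at 6.21 after oxaliplatin then sunitinib (others 6.56 to 6.62), and 1 rat given oxaliplatin then sorafenib was low in both Immp2l (7.40 against 7.63 to 7.66) and Kcnip4 1383220_at (7.49 against 7.94 to 8.03).

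In liver Magi1 1381871_at stood at 9.05 at 24 h after oxaliplatin then sunitinib (others 9.27 to 9.31), Prkcb 1370585_a_at at 6.71 at 24 h after oxaliplatin then sorafenib (others 7.21 to 7.29) and at 8.85 at 6 h after D5W then sunitinib (others 8.32 to 8.39). In heart 1 rat given oxaliplatin then sorafenib at 6 h was high in Foxp2 (7.80 against 7.45 to 7.48) and Magi1 1384504_at (6.25 against 5.93 to 5.98). Prkcb 1370585_a_at stood at 6.28 in heart at 24 h after oxaliplatin then sorafenib (others 6.48 to 6.51) and at 7.81 at 6 h after D5W then sunitinib (others 7.52 to 7.56), the heart with the high T cell list.

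The oxaliplatin effect differed between times, tissues or inhibitors in the tests of the difference itself. In kidney it changed in 11 member probe sets from 1 to 6 h (7.41% of all called) and in 9 from 6 to 24 h (7.2%), in liver in 4 (0.695%) and 8 (6.0%), and in heart in 6 (14.7%) and 6 (13.0%). Between tissues at 6 h it differed in 5 (kidney and liver, 2.74%), 7 (kidney and heart, 14.7%) and 2 (liver and heart, 13.9%). Between sunitinib and sorafenib rats 2 of 13 were called in heart, a smaller share than the 18.0% of all probe sets, and 0 without the 6 h rats. With sunitinib rats alone the heart counts over time were 3 and 0, the liver count from 6 to 24 h was 4, and 1 differed between liver and heart.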

How the results depend on the processing

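No paired analysis was possible because the labels give no replicate numbers. Of 120 member values tested, 43 were called. Of 315 alternative values of these 43, 279 stayed past the threshold in the same direction, 36 did not and 0 reversed. Of 552 alternative values of uncalled ones 9 passed. Leaving out 1 rat at a time lost 3 of the 43 calls and reversed 0. Why values moved was not tested, beyond the fewer rats that single inhibitors and the compared groups alone hold.

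For member probe sets lower after oxaliplatin, kidney at 1 h gave 4 with quantile normalization, 1 with the 4 compared groups alone, 1 in sunitinib and 0 in sorafenib rats, and 1 to 3 leaving out 1 rat. Kidney at 24 h gave 4 in sorafenib rats. Liver gave 4 in sorafenib rats at 6 h, and at 24 h 5 without the filter, 1 with 4 groups and 0 in sorafenib rats. Heart gave 3 in sunitinib rats at 6 h, and at 24 h 0 with 4 groups, 2 in sunitinib and 0 in sorafenib rats.

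For all probe sets lower, kidney at 1 h gave 1403 with quantile normalization, 57 with 4 groups, 303 in sunitinib rats and 413 to 1296 leaving out 1 rat (main 619). Kidney at 6 h gave 438 in sorafenib rats (main 1330), and at 24 h 67 in sunitinib rats, 30 in sorafenib rats and 328 with both misplaced arrays kept (main 124). Liver at 1 h gave 90 in sunitinib and 31 in sorafenib rats (main 180), and at 6 h 37 in sorafenib rats and 201 to 349 leaving out 1 rat (main 311). Liver at 24 h gave 1464 with quantile normalization, 1444 without the filter, 54 with 4 groups, 77 in sunitinib rats, 1602 in sorafenib rats and 600 to 1418 leaving out 1 rat (main 895). Heart gave 14 in sorafenib rats at 1 h (main 1614) and 15 in sunitinib rats at 6 h (main 1732), and at 24 h 24 with 4 groups, 1 in sorafenib rats and 21 to 56 leaving out 1 rat (main 40).

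For differences of the effect (members called), those between sunitinib and sorafenib rats in heart came to 1 without the filter, 1 over all probe sets whatever their symbol, and 0 to 3 leaving out 1 rat, and in liver to 0 to 3. Between kidney and liver 9 were called without the filter. The sorafenib effect in liver was called in 14 without the filter, and the sunitinib effect in heart in 0 to 2 leaving out 1 rat. The following alternatives were chosen after seeing the data. In sunitinib rats alone 0 members changed from 6 to 24 h and 3 from 1 to 6 h in heart, 4 from 6 to 24 h in liver, and 1 differed between liver and heart. Without the heart 6 h rats the sunitinib against sorafenib difference was called in 0 and the sorafenib effect in 3. Without the 24 h rats the sorafenib effect in liver and the sunitinib effect in heart were called in 0.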
